A study of Mus musculus with 15 samples.

Results

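The liver and the colon mucosa were compared gene by gene in male C57BL/6 mice, an inbred laboratory strain, under each of 3 diets. The comparison used 6 of the 15 libraries of the series, 3 from liver and 3 from colon, with 1 library of each tissue per diet. AL mice had free access to food (ad libitum) and were 5 months of age. DR mice (dietary restriction) received 60% of the AL intake, a 40% restriction, for 1 month from 4 months of age and were also 5 months old. DR-AL mice had 1 month of DR followed by 2 months of AL feeding and were 7 months old, so age and diet cannot be told apart in that group. Each library was made from RNA pooled from 5 mice, and the liver and colon RNA of a diet came from the same group of mice. The diets therefore served as the 3 replicates of each tissue. With the diet as a block, p-values measure how the liver-colon gap varied over the 3 diets, not the spread between mice. No value tests whether a tissue difference depends on diet. Loci were included if they carried a gene name and averaged 10 counts or more across the 6 libraries, which held for 14178 of the 23589 named loci among 33603 in all.

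Liver is built mainly of hepatocytes, which secrete most plasma proteins, make bile acids and urea, store and release glucose and modify drugs and steroids. The colon mucosa is a folded sheet of crypts in which stem cells give rise to absorptive colonocytes, mucus-making goblet cells and hormone-making enteroendocrine cells. Colonocytes recover water and salt and burn the short-chain fatty acids made by gut bacteria. Both epithelia derive from embryonic endoderm and share a set of transcription factors, among them the nuclear receptor HNF4.

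Counts on named loci ranged from 21767088 to 24734599 in the liver and from 25043727 to 33422262 in the colon libraries. The 10 loci with the most counts took 12.2% to 13.95% of each liver and 6.68% to 7.03% of each colon library. Markers of the labelled tissues were found where the labels put them. Of 10 hepatocyte markers 9 were far higher in every liver library, and the other one, Alb, which encodes serum albumin, was listed at 0 in all 15 libraries of the series. Scd1, a fatty acid desaturase gene, was listed at 0 in the 5 DR libraries of the series, so a 0 is given here as listed and does not by itself show that a gene was silent. All 9 colonocyte markers, 7 of 8 goblet cell markers and all 8 enteroendocrine markers were far higher in every colon library. Other cells were present unevenly. The summed level of 6 pancreas acinar markers was 5.45 CPM (counts scaled to a common library total) in the DR-AL colon library and at most 0.168 CPM in the other 5 libraries, and the summed level of 5 B and plasma cell markers in colon was 20.99, 6.18 and 28.3 CPM under AL, DR and DR-AL. Acta1, which encodes skeletal muscle actin, had 170, 1326 and 1847 counts in the AL, DR and DR-AL liver libraries. The part of such other cells in the results was not tested. In bulk tissue, fewer cells of a type and less RNA per cell cannot be told apart.

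Most genes differed between the tissues. With edgeR's quasi-likelihood test and the diet as a block, 9922 of 14178 loci (70.0%) passed at a Benjamini-Hochberg adjusted p under 0.05, 4786 of them higher in liver (33.8%) and 5136 higher in colon (36.2%). In 10877 loci (76.7%) the 3 liver and the 3 colon values did not overlap. A locus was called set apart if it also differed at least 4-fold, in the same direction, in each of the 3 diets. This held for 3938 loci (27.8%), 1818 higher in liver (12.8%) and 2120 higher in colon (15%). These percentages are the background for every count of genes given below. All differences are given on the log2 scale as liver minus colon, so that positive values are higher in liver. The median over all loci tested was -0.06.

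The set-apart loci higher in liver held a larger share of liver counts than those higher in colon held of colon counts. These sets were chosen from the same counts, so a high share in their own tissue was built in. The sets also depend on the scaling, and total counts gave 1432 loci higher in liver and 2881 higher in colon. The 1818 liver-high loci held 53.7% to 57.1% of all counts in the liver libraries and 1.98% to 2.31% in the colon libraries. The 2120 colon-high loci held 35.9% to 36.2% of colon counts and 0.969% to 1.07% of liver counts. The median size of the difference was 4.60 for liver-high and 4.90 for colon-high loci. It was 0.75 for loci that were not set apart, a contrast that the 4-fold limit builds in. Of the colon-high loci 654 (30.9%) had at most 3 counts in every liver library and 234 were at 0 in all of them. Of the liver-high loci 276 (15.2%) had at most 3 counts in every colon library and 75 were at 0. The colon libraries were larger after scaling, so 3 counts is a higher CPM limit in liver than in colon. The shares of liver-high and colon-high loci near 0 are therefore not on the same footing. Trip10 and Zfp704 were just inside the 4-fold limit, and Itga4 and 1700010I14Rik just outside.

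**Figure D1:**
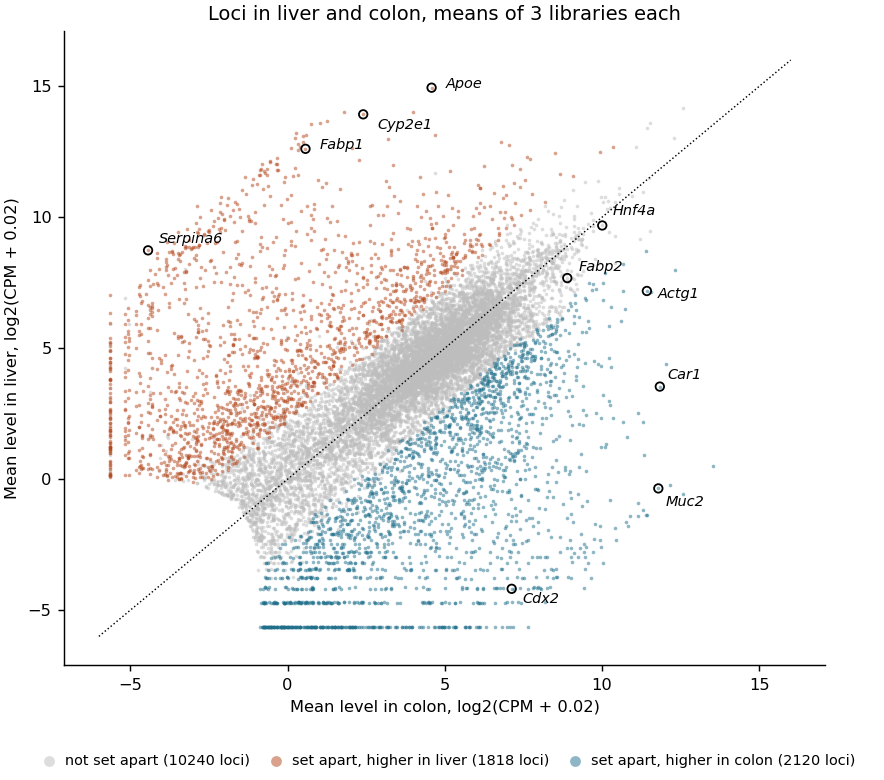
Mean level of each of the 14178 loci in the 3 colon libraries (x axis) against the 3 liver libraries (y axis), both as log2(CPM + 0.02). Coloured points are the 1818 loci set apart higher in liver and the 2120 higher in colon, which lie as 2 clouds on either side of the diagonal.

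The 10 most abundant liver-high loci encoded plasma and other secreted proteins, with the exception of Cyp2e1, a membrane-bound enzyme of the endoplasmic reticulum. Apoe, which carries lipid on lipoprotein particles (chr7:19696109-19699188, GRCm38), had 662405, 582617 and 520640 counts in liver under AL, DR and DR-AL and 798, 774 and 944 in colon. Every liver library was far above every colon library, and the difference was 10.39 (SE 0.45, adjusted p = 2.49e-07), on average 1338-fold. Apoa1, the main protein of high-density lipoprotein (chr9:46228580-46230466), had 249830, 276757 and 402179 counts in liver and 105, 107 and 146 in colon. Its difference was 12.26 (SE 0.42), a mean of 4879-fold. Ahsg, which encodes the plasma glycoprotein fetuin-A (chr16:22891277-22899449), had 227023, 218143 and 224063 counts in liver and 70, 77 and 32 in colon. The liver values were nearly level over the diets, and the difference was 12.87 (SE 0.46). The other loci among the 10 most abundant were Trf, Cyp2e1, Apoa2, Serpina3k, Mup20, Gc and Ttr, with differences of 8.40 for Ttr, the carrier of thyroid hormone and retinol-binding protein, to 12.85 for Mup20. Mup20 encodes a major urinary protein and had 233725, 19246 and 296507 counts in liver and 89, 13 and 20 in colon. The DR library was the lowest of the 3 in each tissue, and the DR-AL library was the highest in liver but not in colon. Mup20 and Serpina3k belong to families of near-identical copies, so reads may be divided among members by the counting.

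Plasma protein genes as a group stood almost wholly on the liver side. All 33 tested were called higher in liver and 32 were set apart, with a median difference of 12.45 (12.33 with the members at 0 in colon set to their lower bound). Their summed level was 107900 to 130200 CPM in liver and 66.5 to 90.1 CPM in colon. Fgb, the beta chain of fibrinogen, had 79755, 77333 and 77325 counts in liver and 20, 33 and 9 in colon, a difference of 12.90 (SE 0.45). Serpina7, thyroxine-binding globulin, had 497, 746 and 804 counts in liver and none in colon, which makes it at least 289.6-fold higher in every diet if a count of 0 is read as at most 3 counts. The fitted differences of genes at or near 0 in 1 tissue depend on the small count that the fit adds to every value. A1bg was the plasma protein gene that did not reach 4-fold in every diet.

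Apolipoproteins, clotting factors and complement followed the same direction with few exceptions. Of 21 apolipoprotein and lipoprotein assembly genes, 20 were called higher in liver (18 set apart, list median 9.82). The exception was Apobec1, which edits the Apob transcript and had 391, 166 and 293 counts in liver and 2901, 3797 and 3125 in colon, a difference of -2.66 (SE 0.24). Apob, the core protein of very low density lipoprotein, had 122477, 71073 and 119051 counts in liver and 11943, 11202 and 15089 in colon. It was set apart at 3.94 (SE 0.26), with a colon level well above that of most apolipoprotein genes. Of 19 coagulation genes 18 were called higher in liver (16 set apart, list median 10.26). F11, coagulation factor XI, had 1258, 1593 and 600 liver counts and none in colon, at least 337-fold. F3, tissue factor, which starts clotting outside vessels, ran the other way with 82, 66 and 129 counts in liver and 1331, 2824 and 1795 in colon (-3.46, SE 0.26). Of 27 complement loci 25 were called higher in liver (24 set apart, list median 9.54). C3, the central complement protein, had 170158, 154157 and 127932 counts in liver and 260, 245 and 450 in colon (9.87, SE 0.50). Cd55, which protects cells from complement, was called higher in colon (-1.77, SE 0.24) without being set apart.

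Amino acid breakdown and nitrogen disposal had no exception. All 31 genes were set apart higher in liver, with a median of 10.25 and a lowest difference of 3.17. Cps1, which commits ammonia to the urea cycle, had 87277, 77601 and 94064 counts in liver and 161, 246 and 126 in colon (9.90, SE 0.36, adjusted p = 1.11e-07). Arg1, which releases urea from arginine, had 41782, 45679 and 87200 counts in liver and 35, 30 and 3 in colon (12.26, SE 0.82). The DR-AL colon library was the lowest for Arg1 while the DR-AL liver library was the highest. Otc, the step between those enzymes, was nearer between the tissues, with 15282, 13048 and 13416 counts in liver and 595, 716 and 329 in colon (5.67, SE 0.26).

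Bile acid genes divided between the tissues by role. All 22 genes of synthesis and liver transport were called higher in liver, 18 of them set apart, with a median of 8.85. Cyp7a1, the rate-limiting enzyme of bile acid synthesis (chr4:6265612-6275633), had 7061, 5958 and 6589 counts in liver and 2, 2 and 0 in colon. Slc10a1, which takes bile acids up from blood into hepatocytes, had 19473, 24148 and 14952 counts in liver and 10, 11 and 7 in colon (11.96, SE 0.34). Abcb11, which exports them into bile, had a difference of 10.84 (SE 0.40). Cyp8b1, which makes cholic acid, had 25071, 3328 and 27676 counts in liver and 24, 6 and 12 in colon, lowest under DR in both tissues.

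Of 5 genes that handle bile acids in the gut, 4 were called higher in colon and 3 were set apart. Slc51a, a subunit of the basolateral bile acid exporter, had 0, 0 and 1 count in liver and 1775, 559 and 737 in colon. Its partner Slc51b had 7, 8 and 6 counts in liver and 955, 661 and 613 in colon (-5.77, SE 0.31). Fabp6, the intracellular bile acid carrier of ileum, was at 0 in liver and at 69, 118 and 78 counts in colon, at least 13.2-fold. Slc10a2, which takes bile acids up at the brush border, had 171, 238 and 496 counts in liver and 3515, 1953 and 1458 in colon. The liver-colon gap of Slc10a2 was -3.55, -1.79 and -0.80 under AL, DR and DR-AL, so it was called (-2.02, SE 0.46, adjusted p = 0.00441) but not set apart. Fgf15, the gut hormone that restrains bile acid synthesis, was listed at 0 in all liver and colon libraries.

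Drug and steroid enzymes were mostly liver genes, with a separate colon set. Of 61 loci of cytochrome P450 families 1 to 4, 45 were called higher in liver (39 set apart) and 11 higher in colon (8 set apart), with a median of 5.66. Cyp3a11, a broad drug oxidase, had 141088, 103959 and 156361 counts in liver and 40, 55 and 39 in colon (12.47, SE 0.40). On the colon side, Cyp2c55 had 53, 147 and 46 counts in liver and 116451, 96527 and 57517 in colon (-9.28, SE 0.53). Cyp2c65 was at 0 in liver and at 7430, 3543 and 3229 counts in colon, at least 499-fold, and Cyp4f40 was at 0 against 1009, 941 and 780, at least 133-fold. Cyp2b9 had 7, 4551 and 10 counts in liver and 0, 2 and 0 in colon, so that nearly all of its liver counts were in the DR library, and on log2(FPKM + 1) values it was not called. Members of the Cyp2a, Cyp2b, Cyp2c and Cyp3a clusters share long stretches of sequence and their separate values are uncertain.

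Of 46 loci for conjugation enzymes 31 were called higher in liver (26 set apart) and 10 higher in colon (4 set apart). Microsomal glutathione transferases were divided, with Mgst1 at 132766, 92320 and 162012 counts in liver and 4158, 7114 and 3394 in colon (5.69, SE 0.38), and Mgst2 at 0, 1 and 3 counts in liver and 2308, 2465 and 1919 in colon (-9.68, SE 0.42). Sult2b1, a cholesterol sulfotransferase, had 1, 0 and 1 count in liver and 1415, 2150 and 1483 in colon. Gstm3 was the conjugation enzyme whose direction turned with diet, with 258, 5877 and 206 counts in liver and 702, 1079 and 536 in colon, and it was not called (0.65, SE 0.84, adjusted p = 0.508). Without the DR libraries Gstm3 was called higher in colon (-0.65, adjusted p = 0.0252).

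Genes that let a tissue release glucose were liver genes. Of 18 genes of glucose production and glycogen 17 were called higher in liver and 16 set apart, with a median of 6.33. G6pc, which frees glucose from glucose-6-phosphate, had 9884, 2981 and 9045 counts in liver and 3, 3 and 2 in colon (12.15, SE 0.36). Pck1, an early step of gluconeogenesis, was much less one-sided, with 102292, 68078 and 60032 counts in liver and 4645, 5738 and 4628 in colon (4.84, SE 0.29).

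Ketone and fatty acid oxidation genes were shared more evenly. Of 21 loci 16 were called higher in liver and 3 higher in colon, but 7 and 2 were set apart, and the list median was 1.22. Oxct1, which cells need to use ketone bodies and which hepatocytes are known to lack, had 95, 139 and 189 counts in liver and 8328, 13528 and 8962 in colon (-5.27, SE 0.25). Slc5a8, which takes up short-chain fatty acids, had 0, 2 and 4 counts in liver and 9207, 15304 and 7273 in colon (-11.32, SE 0.47).

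Most growth hormone axis and iron genes were higher in liver, with some members higher in colon. Igf1, the circulating growth factor that growth hormone induces in hepatocytes, had 20208, 17960 and 14164 counts in liver and 16, 13 and 16 in colon (11.09, SE 0.36), whereas its receptor Igf1r had 48, 51 and 49 in liver and 320, 401 and 319 in colon (-1.87, SE 0.24). Of 19 growth hormone and IGF axis genes 15 were called higher in liver (14 set apart) and Igf1r was the 1 called higher in colon. Of 19 iron and haem genes 12 were called higher in liver (9 set apart) and 5 higher in colon (2 set apart). Hamp, which encodes the iron hormone hepcidin, had 19293, 27621 and 24884 counts in liver and 15, 13 and 7 in colon (11.93, SE 0.41). Heph, the ferroxidase that helps enterocytes pass iron to blood, had 21, 22 and 40 counts in liver and 6490, 8496 and 6069 in colon (-7.06, SE 0.28). The ferritin heavy chain gene Fth1 was not called (0.03, SE 0.26), while the light chain gene Ftl1 was set apart higher in liver (2.31, SE 0.25).

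Liver-resident cells other than hepatocytes were also seen. Of 20 Kupffer cell and sinusoid genes 19 were called higher in liver, 15 set apart, with a median of 5.31. Clec4f, a Kupffer cell receptor, had 1180, 729 and 932 counts in liver and 1, 1 and 0 in colon. Stab2, a scavenger receptor of sinusoidal endothelium, had 636, 777 and 315 counts in liver and 10, 16 and 18 in colon (6.16, SE 0.41). Of 24 extracellular matrix genes 17 were called higher in liver (10 set apart) and 3 higher in colon (2 set apart). Col18a1, the source of endostatin, had a difference of 9.14 (SE 0.28), whereas Lamb3, a chain of an epithelial basement membrane laminin, had 149, 40 and 667 counts in liver and 13588, 12305 and 12455 in colon (-5.32, SE 0.65).

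**Figure D2:**
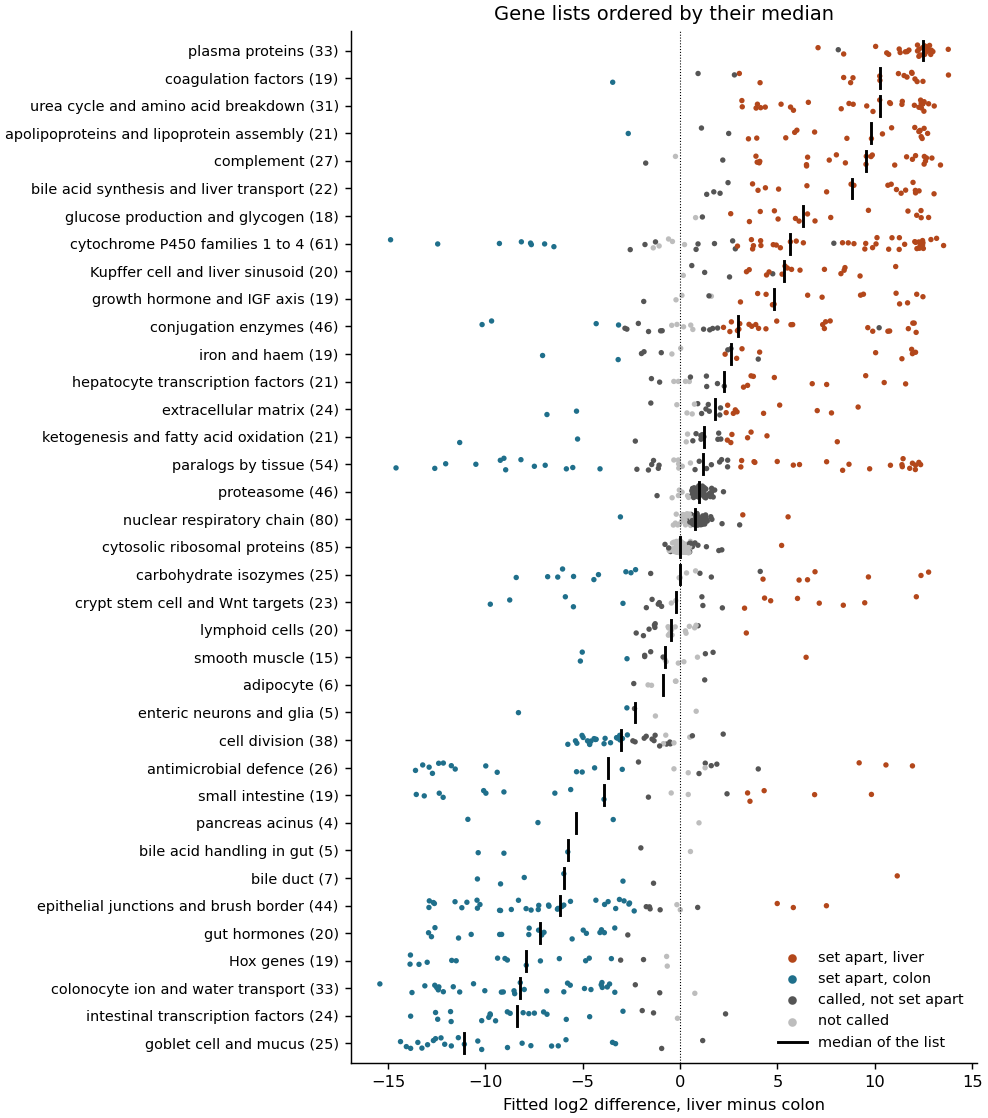
Fitted liver minus colon log2 difference of every tested locus in each of 37 gene lists (x axis), one row per list; each dot is a locus and the bar is the list median. Plasma proteins sit at a median of 12.45 at one end and goblet cell genes at -11.08 at the other, with ribosomal protein genes around 0.01.

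The 10 most abundant colon-high loci included genes for mucus proteins, a keratin, an actin and a carbonic anhydrase. Lypd8, a protein that holds bacteria away from the epithelium (chr11:58379043-58390728), had 394909, 499317 and 380311 counts in colon and 3, 41 and 34 in liver. Every colon library was far above every liver library, and the difference was -13.22 (SE 0.79, adjusted p = 1.56e-06). Clca3, known for its secretion with mucus by goblet cells, had 196582, 243832 and 214523 counts in colon and 4, 19 and 13 in liver (-13.26, SE 0.55). Zg16, which binds bacterial cell walls in mucus (chr7:127050156-127087328), had 135720, 205446 and 150236 counts in colon and 1, 20 and 25 in liver (-12.56, SE 0.70). The AL liver library was the lowest of the 3 liver libraries for Lypd8, Clca3 and Zg16. The other loci among the 10 were Krt8, Lgals4,Lgals6, Car1, Muc2, Ceacam1,Ceacam2, Dmbt1 and Actg1. Of these, Krt8 (-4.33), Actg1 (-4.24) and the merged locus of Ceacam1,Ceacam2 (-4.39) also had substantial counts in every liver library, as in Krt8 with 4839, 4687 and 4628. Lgals4,Lgals6 and Ceacam1,Ceacam2 are each 1 locus with a pair of similar genes, and Krt8 and Actg1 have processed copies that can share their reads.

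Goblet cell and mucus genes were nearly all colon genes. Of 25 loci 24 were called higher in colon and 23 set apart, with a median of -11.08 (-8.87 with members at 0 in liver set to their bound). Muc2, the gel-forming mucin of the colon (chr7:141690340-141754693), had 95143, 142449 and 140976 counts in colon and 4, 24 and 14 in liver (-12.28, SE 0.54, adjusted p = 2.58e-07). Fcgbp, which crosslinks to Muc2 in mucus, had 81793, 118922 and 88830 counts in colon and 1, 16 and 3 in liver. Agr2, needed to fold mucins, had 18993, 34438 and 22003 counts in colon and 0, 1 and 1 in liver. Muc4, a mucin anchored in the membrane, was at 0 in liver and at 2541, 4483 and 3445 counts in colon, at least 484.5-fold. The 1 locus on the other side was Clca1,Clca2 at 1.16, a merged locus that was not called with total-count scaling (0.48) or without the DR libraries (0.83).

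Transport of salt and water set the tissues apart almost as fully. Of 33 colonocyte transport genes 32 were called higher in colon and 30 set apart, with a median of -8.21 (-7.48 with bounds). Slc26a3, the chloride-bicarbonate exchanger, had 55720, 92347 and 60705 counts in colon and 1, 10 and 9 in liver (-12.42, SE 0.51). Slc9a3, the sodium-proton exchanger that works beside it (chr13:74121457-74169442), was at 0 in liver and at 6520, 9833 and 5675 counts in colon, at least 1123-fold. Atp12a, a proton-potassium pump, had 0, 1 and 2 counts in liver and 12960, 25929 and 45278 in colon, the DR-AL colon library being the highest. Scnn1g, a subunit of the epithelial sodium channel, was at 0 in liver and at 463, 390 and 669 counts in colon, at least 54.9-fold. Slc4a4, a sodium-bicarbonate cotransporter, was the 1 transport gene that did not pass (0.75, SE 0.42, adjusted p = 0.138). Without the DR libraries it was called higher in liver (1.36).

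Epithelial structure followed. Of 44 junction and brush border genes 38 were called higher in colon (34 set apart) and 4 higher in liver (3 set apart), with a median of -6.17. Cdh17, the liver-intestine cadherin, had 2, 2 and 3 counts in liver and 27779, 35827 and 27046 in colon (-12.67, SE 0.34). Vil1, villin, which bundles actin in microvilli, had 9, 16 and 5 counts in liver and 23513, 33216 and 22228 in colon (-10.43, SE 0.38). The liver-high members included Cldn1, a tight junction claudin, with 1093, 406 and 2378 counts in liver and 8, 14 and 11 in colon (7.51, SE 0.43). The other 2 set apart in liver were the gap junction genes Gjb1 (4.99, SE 0.22) and Gjb2 (5.81, SE 0.23).

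Antimicrobial genes were divided. Of 26 loci 15 were called higher in colon (14 set apart) and 8 higher in liver (3 set apart), and the list median was -3.68 (-3.24 with bounds). Dmbt1, which binds bacteria and mucus (chr7:131032053-131121630), had 99430, 93186 and 98500 counts in colon and 2, 11 and 7 in liver (-12.89, SE 0.55). Reg3b and Reg3g, lectins that kill bacteria, were at 0 in liver and varied in colon, with 5106, 191 and 320 counts for Reg3b and 1148, 81 and 141 for Reg3g. Their bounds were at least 26.9-fold and 11.4-fold, and the AL colon library was the highest for both. Pigr, which carries antibodies across the colon epithelium and, in the liver, into bile, was not called, with 42843, 33512 and 36025 counts in liver and 70372, 120496 and 82135 in colon (-0.32, SE 0.25, adjusted p = 0.274), though it was called higher in colon with total-count scaling (-1.0).

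All 20 gut hormone genes tested were called higher in colon and 19 were set apart, although their summed level was 389 to 481 CPM. Of the 20, 8 were at 0 in every liver library. Those 8 could pass the count filter only through their colon counts, which fixed their direction. The median of the 20 was -7.19 (-4.52 with bounds). Chga, a granule protein of hormone cells, had 3658, 3290 and 3170 counts in colon and 3, 5 and 1 in liver (-9.17, SE 0.36). Tph1, which starts serotonin synthesis, was at 0 in liver and at 919, 931 and 1110 counts in colon, at least 131-fold. Insl5, a peptide of distal colon L cells, was at 0 in liver and at 954, 1245 and 1211 counts in colon, at least 175-fold. Scaled to library size, the colon levels were 109, 77.9 and 99.2 CPM for Chga, 27.45, 22.04 and 34.73 CPM for Tph1 and 28.5, 29.5 and 37.9 CPM for Insl5, so the colon libraries differed by less than the tissues.

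Wnt signalling, which maintains crypt stem cells and also zones the liver lobule, gave no common direction. Of 23 crypt and Wnt genes 11 were called higher in liver (8 set apart) and 10 higher in colon (5 set apart). Lgr5, the crypt stem cell marker that pericentral hepatocytes also express, had 165, 129 and 178 counts in liver and 124, 165 and 126 in colon. It was called higher in liver (1.12, SE 0.24, adjusted p = 0.00311) although its raw counts overlapped, and with total-count scaling it was no longer called (0.44, adjusted p = 0.135). Notum, a Wnt inhibitor, had 939, 1066 and 690 counts in liver and 1, 4 and 2 in colon (9.48, SE 0.31), and Rspo3, a Wnt enhancer, 114, 132 and 209 against 2, 7 and 4 (6.03, SE 0.40). Ephb2, which positions cells along the crypt, had 16, 20 and 6 counts in liver and 1256, 2168 and 1392 in colon (-5.89, SE 0.32).

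Of 38 cell division genes 32 were called higher in colon (21 set apart) and 2 higher in liver, with a median of -3.03. Mki67, a marker of dividing cells, had 35, 19 and 15 counts in liver and 1206, 4394 and 1031 in colon (-5.38, SE 0.41). The DR colon library was the highest for Mki67, and for Top2a, which untangles replicated DNA, with 712, 2100 and 498 counts in colon against 18, 13 and 7 in liver. Tk1, thymidine kinase, was called higher in liver (2.21, SE 0.21), where it had 804, 759 and 234 counts.

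Genes usually taken as markers of other tissues did not all behave as one block. Of 19 small intestine genes 11 were called higher in colon (10 set apart) and 6 higher in liver (5 set apart). Mep1a, a brush border protease, had 1, 3 and 3 counts in liver and 26180, 25942 and 21592 in colon, whereas Apoa4, a lipoprotein gene of enterocytes and liver, had 7981, 5539 and 132891 counts in liver and 33, 53 and 15 in colon. Lct, lactase, had at most 1 count in any library. Of 7 bile duct genes 6 were called higher in colon (5 set apart), as in Krt19, an epithelial keratin, with 37, 34 and 35 counts in liver and 73327, 130243 and 81293 in colon. Spp1, osteopontin, was the bile duct gene on the liver side, with 1583, 1513 and 903 counts against 1, 2 and 0. Of 20 lymphoid loci 12 did not pass and 1 was set apart, the merged locus Mzb1,Prob1,Spata24. Of 15 smooth muscle genes 7 were called higher in colon (3 set apart) and 3 higher in liver (1 set apart). Of 14 enteric neuron and glia genes listed 5 were tested, and 3 were called higher in colon. Of 8 adipocyte genes listed 6 were tested, and 1 was called in each direction. Of 18 pancreas acinar genes listed only 4 had enough counts to be tested, and 3 were called higher in colon. Of those 4, 2 were at 0 in liver and passed the filter through colon alone. Among the untested members, Ctrb1 had 0, 0 and 54 counts in colon under AL, DR and DR-AL and none in liver.

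**Figure D3:**
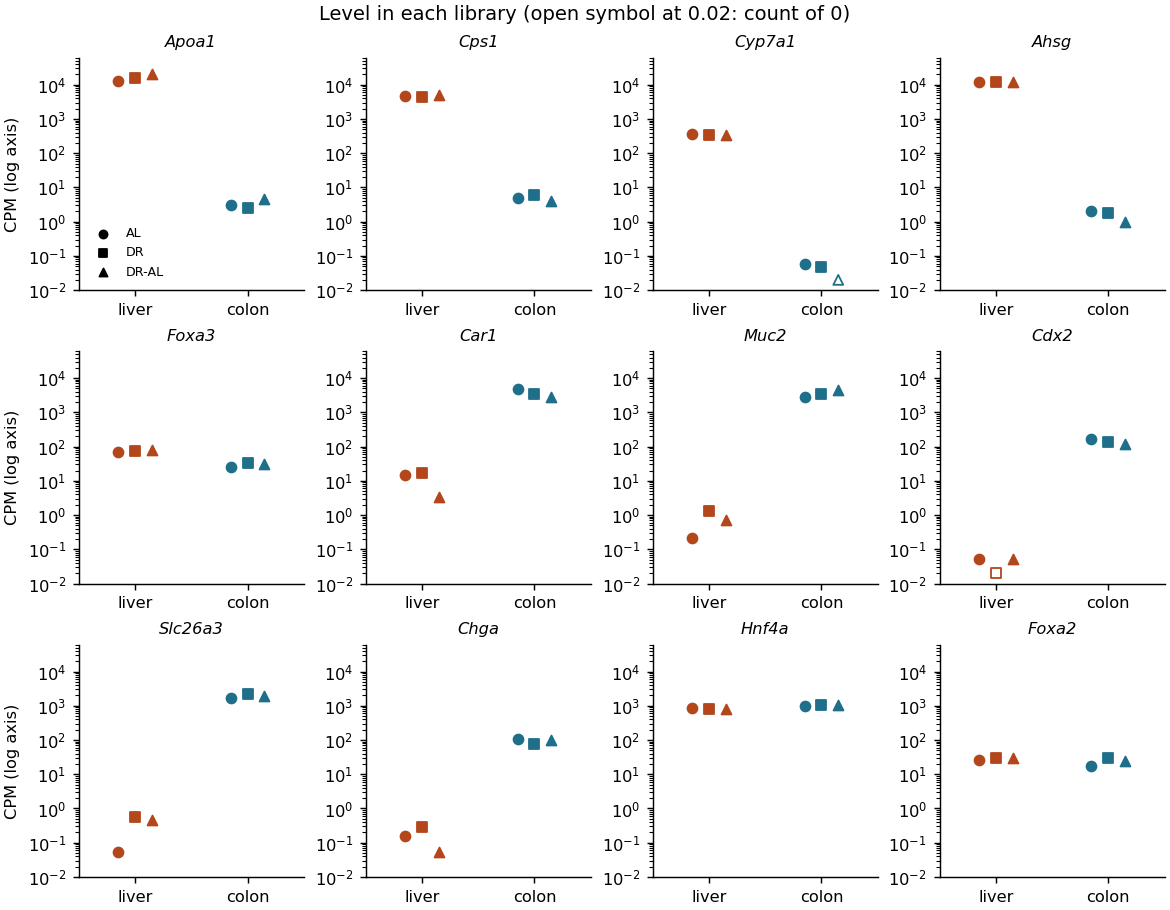
CPM in each of the 6 libraries for 12 genes, on a log scale, with liver and colon side by side, 1 symbol per diet and open symbols for a count of 0. Apoa1, Cps1, Cyp7a1 and Ahsg sit high in liver, Car1, Muc2, Cdx2, Slc26a3 and Chga high in colon, and Foxa3, Hnf4a and Foxa2 at nearby levels in both.

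Transcription factors known for hepatocytes were less one-sided than those known for intestine. Of 21 factors known for hepatocytes 15 were called higher in liver, 10 set apart, and 2 were called higher in colon, with a median of 2.27, far below that of the plasma protein genes. Hnf4a, a nuclear receptor that both epithelia need, had 16927, 14303 and 14898 counts in liver and 33274, 43344 and 34105 in colon. The raw counts were higher in colon, and after scaling the difference was -0.32 (SE 0.21, adjusted p = 0.191). Foxa2, a factor that opens chromatin in endoderm, was not called either (0.27, SE 0.18). With scaling to total counts Hnf4a was called higher in colon, at -1.01. Foxa1 was called higher in colon (-1.47, SE 0.16) and Foxa3 higher in liver (1.35, SE 0.16), neither by 4-fold in every diet, and neither was called when all 15 libraries shared the fit (adjusted p = 0.0525 and 0.0671). Onecut1 had 740, 641 and 419 counts in liver and 0, 2 and 0 in colon. Prox1, which hepatoblasts need, had 2566, 1994 and 2003 counts in liver and 48, 35 and 31 in colon (6.78, SE 0.22), and Nr0b2, a repressor in bile acid feedback, had 754, 716 and 911 against 0, 1 and 0.

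Of 24 intestinal factors 22 were called higher in colon and 20 set apart, with a median of -8.40 (-7.77 with bounds). Cdx2, which specifies intestine, had 1, 0 and 1 count in liver and 5485, 5712 and 3840 in colon (-11.76, SE 0.36), and Cdx1 had 0, 1 and 1 against 7829, 10631 and 7867. Atoh1, which directs cells to the secretory fate, was at 0 in liver and at 1916, 2972 and 2359 counts in colon, at least 365-fold. Hnf4g, the paralog of Hnf4a, had 2, 3 and 6 counts in liver and 1220, 1562 and 1099 in colon (-7.48, SE 0.33). Foxf1, a mesenchymal factor, was the 1 intestinal factor called higher in liver (2.33, SE 0.49), on 43, 34 and 70 counts.

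Of 19 Hox loci 17 were called higher in colon and 15 set apart, with a median of -7.90 (-4.67 with the 8 loci at 0 in liver set to their bound). Those 8 loci could pass the count filter only through their colon counts, which fixed their direction. Genes of the last paralog group, which mark the hindgut, led the Hox loci. Hoxb13 had 0, 2 and 0 counts in liver and 8356, 15283 and 11784 in colon, Hoxa13 was at 0 against 2077, 3406 and 2057, at least 396-fold, and Hoxd13 at 0 against 1642, 2244 and 1521, at least 301-fold. Hoxa4 (-0.66, SE 0.61), from the other end of the cluster, was not called. Of the 27 Hox genes on these loci several share a merged locus with a neighbour.

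The stretches before the start sites of 4 of these genes are shown because they set an abundant liver gene, an abundant colon gene, a colon regulator and a shared regulator side by side. All 4 were taken from the 13 genes whose windows held a motif, so that the motif is present in them by choice. Each run is the 250 bases before a RefSeq transcript start on GRCm38.p6, 5′ to 3′ on the strand of the gene, and capitals mark the letters GTTAAT on either strand (read as ATTAAC on the other). Gc, which encodes vitamin D binding protein, had 186493, 177441 and 143896 counts in liver and 52, 78 and 32 in colon (12.62, SE 0.40). Its region was chr5:89457899-89458148 on the minus strand. The region for Lypd8 was chr11:58380396-58380645 on the plus strand, that for Cdx2 chr5:147307250-147307499 on the minus strand, and that for Hnf4a chr2:163546905-163547154 on the plus strand. Lypd8 and Hnf4a each had 2 windows. The starts used for Lypd8, Hnf4a and Cdx2 lie inside the annotated gene, downstream of its first start. The annotated Cdx2 gene reaches to chr5:147307270, so the last bases of its run lie within the gene.
Gc: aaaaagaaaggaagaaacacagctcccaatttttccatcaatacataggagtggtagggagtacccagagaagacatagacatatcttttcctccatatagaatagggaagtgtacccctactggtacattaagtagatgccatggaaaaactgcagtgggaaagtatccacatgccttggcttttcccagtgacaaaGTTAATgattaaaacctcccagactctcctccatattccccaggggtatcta
Lypd8: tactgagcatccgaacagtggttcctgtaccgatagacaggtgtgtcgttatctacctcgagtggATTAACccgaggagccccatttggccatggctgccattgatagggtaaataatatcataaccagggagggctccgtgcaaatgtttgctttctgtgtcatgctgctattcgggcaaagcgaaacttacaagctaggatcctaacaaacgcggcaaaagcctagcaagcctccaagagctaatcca
Cdx2: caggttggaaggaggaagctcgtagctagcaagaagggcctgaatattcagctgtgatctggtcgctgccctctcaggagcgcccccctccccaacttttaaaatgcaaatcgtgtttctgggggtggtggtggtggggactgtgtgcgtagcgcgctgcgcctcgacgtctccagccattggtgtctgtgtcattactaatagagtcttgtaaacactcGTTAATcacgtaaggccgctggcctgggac
Hnf4a: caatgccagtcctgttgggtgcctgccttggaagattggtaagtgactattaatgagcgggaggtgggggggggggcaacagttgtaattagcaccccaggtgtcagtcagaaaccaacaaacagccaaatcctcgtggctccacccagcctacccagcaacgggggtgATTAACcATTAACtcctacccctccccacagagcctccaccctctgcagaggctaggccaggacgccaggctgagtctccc
These letters began 52 bases before the start in Gc, 185 in Lypd8, 30 in Cdx2 and 81 and 74 in Hnf4a. In windows of 300 bases, 250 before to 50 after the start, GTTAAT on either strand was found in 8.6% of 1674 windows of liver-high genes, 5.09% of 1983 windows of colon-high genes, 4.93% of 13539 windows of all tested genes and 7.1% of all 32851 windows. The HNF4 motif CAAAGTCCA was found in 1.02% of liver-high, 0.958% of colon-high, 0.547% of tested and 0.475% of all windows. The CDX motif TTTATG was found in 9.5%, 9.43%, 7.32% and 11.9%, and a second CDX form, TTTATTG, in 3.11%, 3.18%, 2.81% and 4.6%. The 69 abundant and regulator genes searched gave 62 windows for 45 genes, and 13 genes held at least 1 of the motifs. A match describes the letters in a window and does not show that a factor binds there. The windows matched 1311 of 1859 symbols in the liver-high and 1532 of 2156 in the colon-high loci.

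Enzyme and carrier families changed member between the tissues. Of 25 isozyme genes of carbohydrate metabolism, 10 were called higher in liver (7 set apart) and 11 higher in colon (10 set apart), and of 54 genes listed as tissue paralogs 29 (21 set apart) and 19 (13 set apart). Shares here are of the summed FPKM of the members chosen for a family, which need not be all of its genes. FPKM is a level per transcript length and library size, which allows genes of different length to be compared. Glycogen synthase was Gys2 in liver (99.0% to 99.3%) and Gys1 in colon (98.8% to 100%), and phosphorylase was Pygl in liver (94.0% to 98.6%) and Pygb in colon (92.8% to 96.0%). These ranges over the diets did not overlap between the tissues.

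Outside sugar metabolism, the same held for methionine adenosyltransferase and the steroid dehydrogenases. Mat1a held 97.5% to 98.5% in liver and Mat2a 99.3% to 99.7% in colon. Hsd11b2, which inactivates corticosterone and so keeps it from the mineralocorticoid receptor, held 99.8% to 99.9% in colon and at most 0.00755% in liver, where Hsd11b1, which regenerates corticosterone, made up the rest. Among the glucose transporter genes Slc2a1, Slc2a2 and Slc2a5, Slc2a2 held 85.9% to 94.5% in liver and Slc2a1 97.3% to 98.9% in colon. Among the fatty acid binding protein genes Fabp1, Fabp2, Fabp5 and Fabp6, Fabp1 held 96.2% to 99.2% in liver and Fabp2 96.1% to 98% in colon. Fabp1 had 114836, 107507 and 128155 counts in liver and 65, 56 and 36 in colon (12.08, SE 0.42), whereas Fabp2 was called higher in colon but stood less far apart, with 2412, 1147 and 8049 counts in liver and 23028, 13951 and 13114 in colon (-1.63, SE 0.48, adjusted p = 0.0160). Without the diet block Fabp2 was not called (-1.22, adjusted p = 0.116).

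Other families kept the same leading member or shifted in part. Ldha held 98% to 99.6% of lactate dehydrogenase FPKM in liver and 99.5% to 99.7% in colon. Hnf4a held 99.96% to 99.99% of the HNF4 pair in liver and 95.7% to 96.2% in colon. Pyruvate kinase was Pklr in liver at 62.5% to 90.4%, the lowest share being under DR-AL, and Pkm in colon at 95.4% to 96.3%. Counts of Pklr alone were not called different between the tissues (0.79, SE 0.43, adjusted p = 0.134), with 2183, 5080 and 817 in liver and 2275, 2747 and 1950 in colon. Without the DR-AL libraries Pklr was called higher in liver (1.44, adjusted p = 0.00704).

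**Figure D4:**
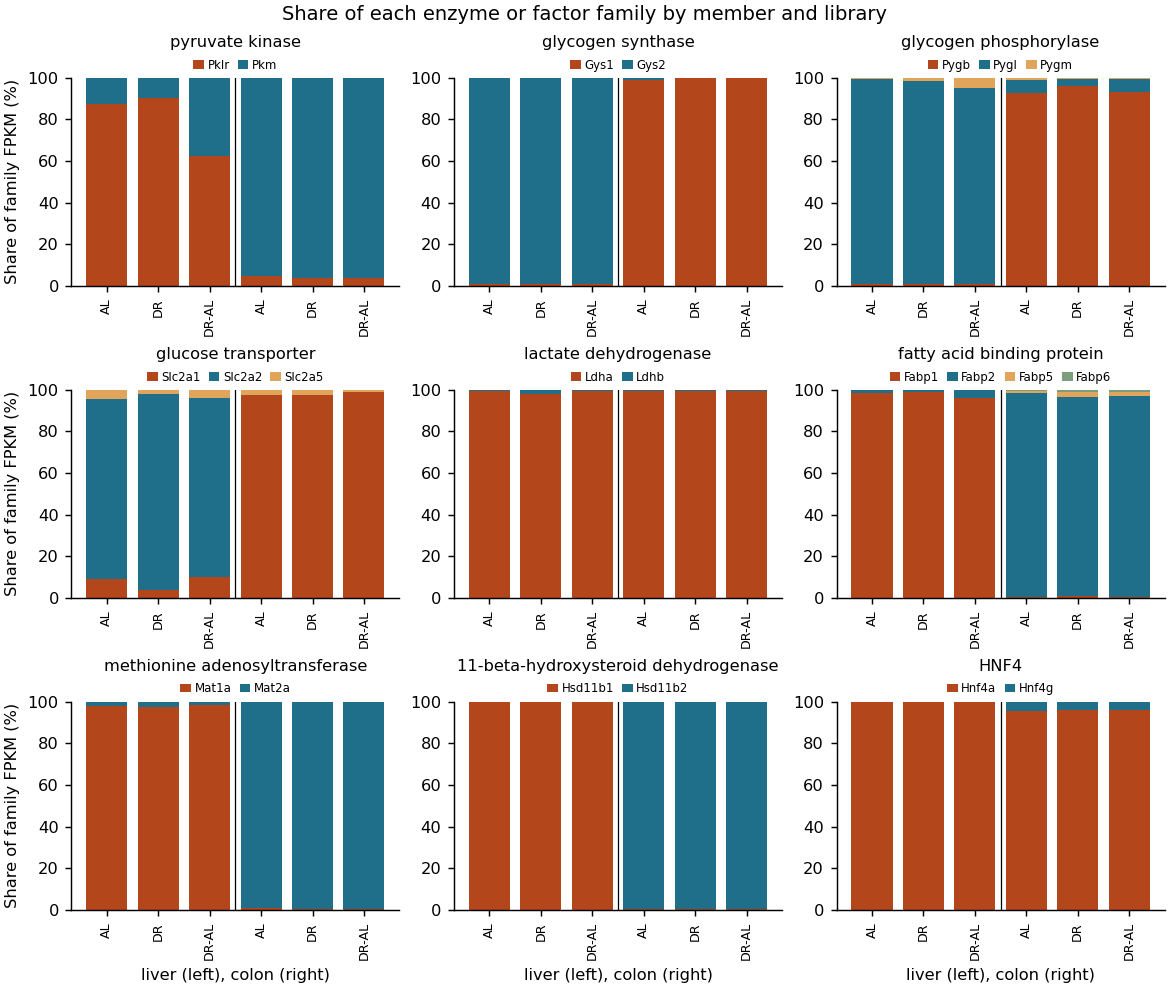
Share of the summed FPKM of the members chosen for 9 enzyme, carrier and regulator families held by each member, in percent, for the 3 liver and 3 colon libraries. In the fatty acid binding protein bars Fabp1 fills at least 96.2% in liver and Fabp2 at least 96.1% in colon, while in the lactate dehydrogenase bars Ldha fills at least 98% in every library.

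Ribosomal protein genes were centred near 0. Of 85 ribosomal protein loci 71 did not pass, 10 were called higher in liver and 4 higher in colon, with a median of 0.01. Rpl32, a protein of the large ribosomal subunit, had 5574, 6530 and 5814 counts in liver and 11449, 15823 and 11080 in colon, and after scaling its gaps were -0.23, -0.03 and -0.18 under AL, DR and DR-AL. The 10 most abundant loci within 0.25 of 0 in each diet included Rpl19, Rpl32, Rps28, Rpl35, Rpl7, Cox5b, Rps10 and Rpl8. Ribosomal proteins have many processed copies, so their counts are uncertain. Rpl3l was the ribosomal gene set apart, on 11, 23 and 38 counts in liver and 2, 0 and 1 in colon.

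Mitochondrial and proteasome genes leaned to liver by small amounts. Of 80 nuclear respiratory chain loci 54 were called higher in liver and 1 higher in colon, with a median of 0.77, and 3 were set apart. Cox6a2, the heart and muscle form of a cytochrome oxidase subunit, was set apart in liver on 12, 123 and 114 counts against 4, 1 and 3. Another muscle form, Cox7a1, was set apart in colon with 814, 1255 and 764 counts against 22, 77 and 90 in liver. Ndufa4 was the third, with 9574, 10062 and 16699 counts in liver and 2291, 2804 and 2159 in colon (3.22, SE 0.24). The liver counts of the muscle forms Cox6a2 and Cox7a1 were lowest under AL, as were those of Acta1. A part of muscle cells in these liver counts was not tested. Of 46 proteasome loci 39 were called higher in liver, 1 higher in colon and none set apart, with a median of 0.98. These directions depended on the scaling. The main scaling assumes that most genes do not differ, and with total counts in its place the median of all loci moved from -0.06 to -0.74. The ribosomal median then became -0.67 with 55 loci called higher in colon, the respiratory chain median 0.09 with 17 called higher in liver and 10 in colon, and the proteasome median 0.30 with 17 and 5.

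The gap between the tissues varied with diet for some genes, which is described here without a test because each tissue and diet had 1 library. Over 7906 well-counted loci the range of the gap over the 3 diets had a median of 0.53 and exceeded 1 in 1069 loci and 2 in 84. The liver varied more than the colon. The median log2 range over diets was 0.472 in liver (8799 loci) and 0.244 in colon (10114 loci). Of 1245 liver-high loci well counted in liver, 280 (22.5%) varied over 2-fold there, against 9.90% of 7160 loci not set apart, and of 1611 colon-high loci well counted in colon 110 (6.83%) did so there, against 1.19% of 8059.

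Among called genes with at least 100 counts in every library, the gap moved most in Rgs16, Acta1, Car3, Insig2 and Fdps on the liver side. Rgs16, a brake on G protein signalling, had 1604, 11335 and 619 counts in liver and 122, 147 and 143 in colon, giving gaps of 4.52, 7.50 and 2.86. Car3, a carbonic anhydrase, had 55115, 60184 and 12577 counts in liver and 377, 228 and 359 in colon, giving gaps of 8.0, 9.28 and 5.88. Rgs16 and Car3 were higher in liver in every diet. The DR-AL liver library was the lowest of the liver libraries for both, and the DR colon library was the lowest of the colon libraries for Car3. Insig2, which holds back cholesterol synthesis, had 4327, 1585 and 14616 counts in liver and 1383, 1595 and 1114 in colon, and Fdps, an enzyme of that synthesis, had 1097, 7463 and 500 in liver and 888, 1839 and 748 in colon. Among the liver libraries, Insig2 was lowest and Fdps highest under DR. The gap of Acta1, skeletal muscle actin, was 0.22, 3.85 and 4.19. Without the DR-AL libraries Acta1 was not called (2.11, adjusted p = 0.0512), nor was Fdps with total-count scaling (0.81, adjusted p = 0.194).

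On the colon side the gap moved most in Saa1, Aqp4, Aqp8, Slc10a2 and Hist1h1c. Saa1, an acute phase protein, had 2790, 150 and 835 counts in liver and 41252, 59389 and 63562 in colon, giving gaps of -3.08, -7.38 and -5.50. Saa1 shares much of its sequence with Saa2. Aqp8, a water channel, had 458, 2281 and 410 counts in liver and 36954, 44305 and 45500 in colon (gaps -5.53, -3.04 and -6.04). Aqp4, another water channel, had 173, 113 and 445 counts in liver and 7043, 20550 and 6217 in colon (gaps -4.54, -6.26 and -3.05). For Aqp4, unlike Aqp8, the colon values moved as well as the liver values, with the DR colon library the highest. Hist1h1c, a linker histone, had 1593, 269 and 1503 counts in liver and 13667, 16045 and 9474 in colon.

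In 8 loci the tissue with more RNA changed with diet, by at least 2-fold each way. Fasn, fatty acid synthase, had 1954, 12278 and 794 counts in liver and 2674, 4305 and 2825 in colon, giving gaps of 0.35, 2.75 and -1.08. Malat1, a nuclear noncoding RNA, had 4420, 15796 and 1661 counts in liver and 9084, 9754 and 10129 in colon (gaps -0.23, 1.94 and -1.86). Selenbp2 had 3907, 235 and 913 counts in liver and 1757, 2995 and 1461 in colon (gaps 1.96, -2.43 and 0.07). In Fasn and Malat1 the DR liver library was the highest of the 6, and in Selenbp2 it was the lowest. The fit for Selenbp2 gave 1.01 without the DR libraries and -1.16 without the AL libraries. The others were Pgm3, Fam193b, Fnbp4, Mapk8ip3 and 2010003K11Rik.

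**Figure D5:**
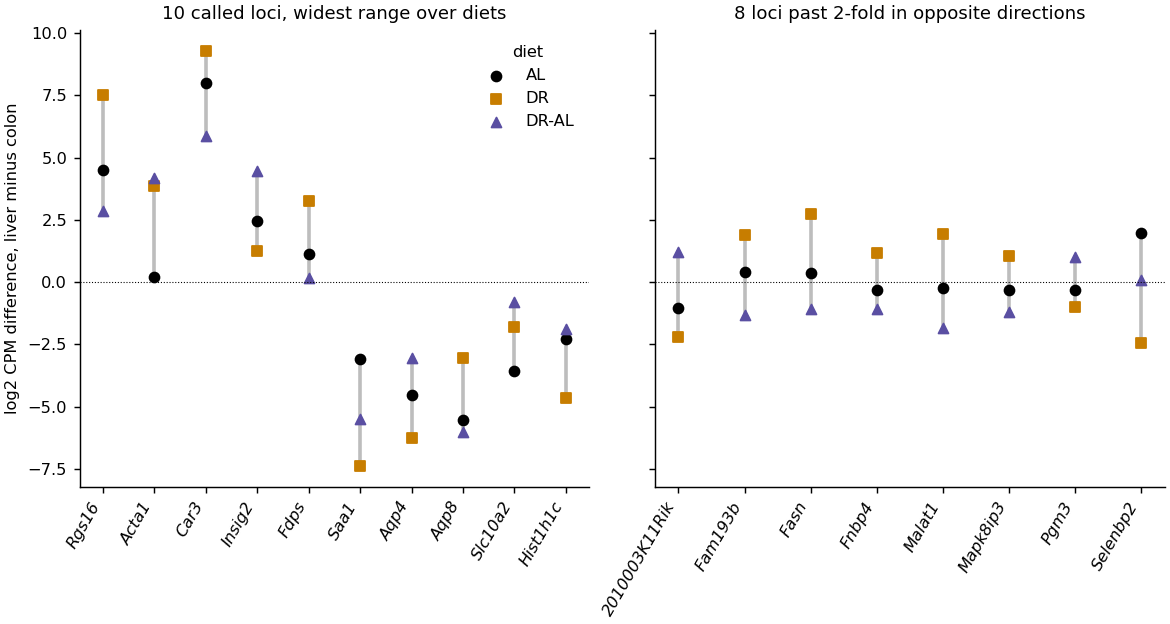
Liver minus colon log2 difference under AL, DR and DR-AL for the 10 called genes whose gap moved most (left) and for the 8 loci whose direction changed (right), with 1 symbol per diet. Rgs16 peaks under DR at 7.50, Saa1 reaches -7.38 under DR, and Fasn crosses 0 from 2.75 under DR to -1.08 under DR-AL.

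The genes that set liver and colon apart were not all particular to those tissues. Of the 1818 liver-high loci 764 (42.0%) were higher in every liver library than in all 9 libraries of epididymal fat, hypothalamus and hippocampus, against 9.71% of all loci tested, and 274 were at least 4-fold higher. In the AL fat library the hepatocyte gene Afm had 540 counts, against 30 under DR and 65 under DR-AL in fat. Without the AL fat library, the liver counts above were 803 and 458. Of the 2120 colon-high loci 1190 (56.1%) were higher in every colon library than in all 9 others, against 19.6% of all loci, and 648 were at least 4-fold higher. Both sets were chosen for high values in the same liver or colon libraries, so part of the excess over all loci was built in. By mean level, liver was the highest of the 5 tissues for 948 liver-high loci and fat for 510. The fat means included the AL fat library, so a highest mean in fat does not show expression in fat cells. Colon was the highest for 1375 colon-high loci, the hypothalamus for 276, fat for 238 and the hippocampus for 231.

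The abundant genes of each tissue had low levels in the other, with wide tails. For the 50 most abundant liver-high genes the colon level had a median of 0.0219% to 0.0264% of the liver level over the diets, an upper quartile of 0.263% to 0.354% and a highest value of 18.8% to 21.6%. For the 50 most abundant colon-high genes the liver level had a median of 0.209% to 0.270% of the colon level, an upper quartile of 2.13% to 2.23% and a highest value of 19.9% to 22.1%. Apoa1 and Ahsg were low in colon and Muc2 and Car1 low in liver, whereas Krt8 kept at least 4628 counts in each liver library.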

How the data were processed

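RNA-Seq was carried out on 15 libraries, each from RNA of 5 pooled mice, and the 3 liver and 3 colon libraries were compared here. The methods describe strand-specific, rRNA-depleted, paired-end libraries. The authors trimmed reads, aligned them to mm10 with Strand software, removed duplicate reads and quantified genes, whereas the submitters' processing notes list mm9 and DESeq2. Removal of duplicate reads compresses the counts of the most abundant genes. The deposited counts are whole numbers per locus without normalization. The deposited FPKM values were scaled by the authors for transcript length and library size, and were used only for shares within families, to rank near-equal genes and as an alternative. Whether counting used the strand is not given in the sources used here. Of 21348 symbols matched to GENCODE M21, 2905 (13.6%) overlapped the position in the table, so coordinates printed are those of GENCODE M21 on GRCm38 or of RefSeq on GRCm38.p6. No per-sample column was left unused.

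Loci without a gene name held 0.258% to 1.26% of counts and stayed out of library sizes. Loci with a mean of at least 10 counts were fitted with edgeR 4.0.16 (R 4.3.3, limma 3.58.1) by glmQLFit and glmQLFTest with TMM scaling, tissue and diet, which leaves 2 residual degrees of freedom. The test also drew on variance shared across loci, with a median of 6.03 prior degrees of freedom. TMM factors were 0.774 to 0.820 in liver and 1.26 to 1.28 in colon. A locus was called at a Benjamini-Hochberg adjusted p under 0.05. The log2 gap in each diet used CPM with a pseudocount of 0.5 counts. A fold against a tissue at 0 in every library was taken against a floor of 3 counts per library as the lowest of the 3 diets, and the floor covers counting error only. The block is the diet, since liver and colon of a diet came from the same pool of mice. The correlation of deviations between liver and colon of the same diet was 0.0968, 0.0628 and 0.00396. The study's methods give no test between tissues. An exact permutation test of 3 against 3 libraries cannot go below p = 0.1 and was not used.

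Genes were named by rule: the 10 most abundant set-apart loci in each direction, the 10 with the largest fitted difference among those with at least 100 CPM, members of 37 gene lists, the 5 called loci in each direction with at least 100 counts in every library whose gap varied most over diets, and the 10 most abundant loci within 0.25 of 0 in each diet. The comparison, the lists and the genes were chosen with earlier results of these data known. A symbol on several loci was taken at the locus with the most counts. Of 1137 listed symbols 11 had no locus of that name, and 82 were under 10 counts on average or at 0 and were not tested.

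The fit was tested on simulated data of 14178 loci for this comparison with 200 changed loci. It recovered 64% of 2-fold, 96% of 4-fold, 100% of 16-fold and 100% of 64-fold changes, with 10 false calls. The simulation changed few loci, evenly up and down, with a common spread for all loci and no diet effect. It therefore does not show recovery or false calls where most loci differ, as between these tissues. The alternatives were no diet block, DESeq2 1.42.0 and its size factors, total counts, other filters, all 15 libraries, FPKM with limma at pseudocounts of 0.1 and 1, single-name loci, other fold limits and leaving out each diet. Tables were handled in Python 3.11.15 with pandas 2.3.3. Some items are not reported here.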

Additional observations from a re-analysis of the deposited data

Results flagged for a closer look

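The table also holds 10014 loci without a gene name, which no comparison used. Of these, 1166 had a mean of at least 10 counts, and 242 of them were at least 4-fold higher in liver and 349 at least 4-fold higher in colon in every diet, on CPM with a pseudocount of 0.02 CPM. The pair with the most counts were colon loci on chromosome 5. The first had 72285, 136688 and 92625 counts in colon under AL, DR and DR-AL and 0, 16 and 3 in liver, and the next had 79194, 128906 and 123136 in colon and 0, 8 and 14 in liver. They were flagged because their signal lies outside the named loci, and what they encode is not given in the table.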

How the results depend on the processing

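The direction of the tissue difference held for most of the named genes that were checked. The 149 loci checked were those named here by rule or from the gene lists. Fasn, Malat1, Pgm3, Fam193b, Fnbp4, Mapk8ip3 and 2010003K11Rik, whose direction changed with diet, were not among them. Each locus was refitted under those of 12 alternatives in which it passed the filter. Of the 149, 126 kept their direction and their side of the threshold in each such fit and 146 were never reversed. Among 1782 results computed, 3 were reversed, 10 fell below the threshold and 14 newly passed it. The reversed results were Rpl19 with total counts (-0.62), and, without the DR libraries, Selenbp2 (1.01) and Gstm3 (-0.65). Leaving out each diet in turn, Selenbp2 ranged from -1.16 to 1.01 and Gstm3 from -0.65 to 1.6.

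Scaling to total counts left 3114 loci called higher in liver and 7545 higher in colon, from 4786 and 5136, since it moves every locus by about the same amount between the tissues. Set-apart loci depended on the scale and the limit. On log2(FPKM + 1) 2384 were set apart, 1171 of them higher in colon. At 2-fold in every diet 6353 were set apart (2987 higher in liver and 3366 in colon), and at 16-fold 1943 (880 and 1063). Of the 3938 set-apart loci 59.1% stayed so on log2(FPKM + 1) and 90.2% with total counts. Without the replicate block 10140 were called and the same 3938 loci were set apart. The block enters the set-apart condition only through the call. Fabp2 was the 1 of the 149 checked loci that lost its call without the block. Leaving out 1 diet gave 8333 to 9662 called loci and 4200 to 4246 set apart, a condition that is easier to meet over 2 diets than over 3. DESeq2 called 9632.

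Only 3 pools per tissue, each on another diet, stand behind every p-value, together with variance shared across loci. On simulated data of this size with few changed loci, 64% of 2-fold changes were recovered. A locus that was not called therefore cannot be taken as equal. Zeros were taken as listed, and 3 counts per library is the floor behind every lower bound.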

Other observations

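Families defined by a shared start of the gene symbol, chosen after their values were seen, gave further groups with 1 prevailing direction. Of 31 Serpin loci, which encode protease inhibitors and hormone carriers, 25 were called higher in liver (24 set apart) and 3 higher in colon, with a median log2 difference of 9.78. Of 15 carboxylesterase loci (Ces) 9 were called higher in liver and 4 higher in colon, and of 18 aldehyde dehydrogenase loci (Aldh) 12 and 4. On the colon side, 13 of 15 keratin loci (Krt), all 5 mucin loci (Muc), 5 of 6 fucosyltransferase loci (Fut) and 15 of 22 loci for glycan-extending enzymes (B3gnt and B4galt) were called higher in colon. Of 13 Ly6 loci 9 were called higher in colon and 1 higher in liver, of 11 annexin loci (Anxa) 8 and 2, and of 10 S100 loci 7 and 1. The solute carriers, with 282 loci, were spread over both tissues, 97 called higher in liver and 123 higher in colon, and so were the zinc finger genes with the Zfp symbol, with 61 and 92 of 321. Members of the Serpin, Ces and Ly6 families share sequence, so their separate counts are uncertain.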
